A study of Mus musculus with 18 samples.

Results

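The 30 genes described here encode the machinery that takes up glucose, breaks it down to pyruvate and exports lactate, together with the oxygen regulated factor HIF1A, its hydroxylases and some of its targets. They were chosen by name, with earlier results of these data known. All 30 symbols were found among the 25897 gene symbols of the count table, and all 30 passed the low count filter that left 14128 genes for testing. They comprise 4 transporters of glucose and lactate, 9 enzymes of upper glycolysis, 6 of lower glycolysis, 3 genes of the pyruvate and lactate branch, 2 regulators of fructose bisphosphate, 3 genes of the HIF factor and its prolyl hydroxylases, and 3 HIF targets outside glycolysis.

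As background, glycolysis yields ATP and pyruvate, and pyruvate is either oxidised in mitochondria or reduced to lactate by lactate dehydrogenase. HIF, a dimer of an oxygen regulated alpha subunit and ARNT, binds short hypoxia response elements near many genes of this pathway, and the EGLN hydroxylases mark the alpha subunit for destruction when oxygen is present. MYC binds overlapping E-box elements at many of the same genes, and pluripotent stem cells are known for high glycolytic flux.

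Newly made RNA was counted in mouse embryonic stem cells (E14tg2a, 129SV background) that lack endogenous Med24, a subunit of the Mediator complex through which transcription factors reach RNA polymerase II. Every line also carried a TET regulated FLAG-Med24 cDNA and a cassette for cRAF-ErT2 and RTTA, so that 4-hydroxytamoxifen (4OHT) switches on cRAF and, through it, ERK. KO cells were kept without doxycycline and WT cells with 500 nM doxycycline over several passages, so WT here means cells with the cDNA and not unmodified cells. Cells of both kinds grew in serum with LIF and 2 µM Chir99021, spent 24 h in serum with LIF and 250 nM PD173074, an FGF receptor inhibitor, and then received 250 nM 4OHT for 0, 2 or 8 h. RNA made in the last 15 min was tagged with 5 mM ethynyl uridine and captured. There were 6 groups (KO at 0, 2 and 8 h and WT at 0, 2 and 8 h) of 3 libraries each, labelled as clones A, B and C; values below are listed in that order. All WT and no KO libraries had doxycycline, so its effects and those of Med24 cannot be told apart, and p-values measure the spread between libraries of these clones.

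Med24 had 39.5, 41.7 and 35.5 CPM (counts scaled to a common library size, as defined by edgeR) in KO cells at 0 h, 49.2, 43.1 and 47.3 at 2 h and 41.1, 42.8 and 33.96 at 8 h. WT cells had 528, 602 and 515 CPM at 0 h, 1519.7, 1775 and 1610.2 at 2 h and 405, 407 and 399 at 8 h, so each library was on the side its label gives. Library totals ran from 6691177 to 14541145 counts, at which a count of 0 allows up to 0.196 to 0.628 CPM (3 counts; counting error only). All 10 stem cell markers exceeded 5 CPM in every library, and 6 of 8 fibroblast markers stayed under 1 CPM in all of them, with 1 of the 8 at 0. The 8 together summed to 0.807 to 1.84 CPM in KO and 0.835 to 1.80 CPM in WT cells at 0 h. At 2 h the sums were 6.72 to 8.27 and 7.29 to 9.43 CPM, and at 8 h 5.44 to 7.97 and 3.36 to 4.55 CPM. In log2 fold change, KO cells had 4.66 for Col1a1 and -2.04 for Thy1 at 2 h against 0 h. At 8 h against 2 h they had -2.89 and 5.13. The labels name no spike-in, so each change is measured against the rest of its own library. In bulk RNA fewer cells of a type and less RNA per cell cannot be told apart.

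Some libraries stood apart. Cdk8, Jarid2, Lars2 and 10 more highly counted genes together took 34.2% of counts in KO 2 h clone A, 36.4% in KO 8 h clone B and 43.9% in KO 8 h clone C, against 17.7% to 24.0% in the other 15 libraries. The 3 KO 8 h libraries also disagreed on the members, whose summed level was 4782, 5879 and 6521 CPM in clones A, B and C, against 6353, 6318 and 6348 CPM in WT cells at 8 h. In KO cells at 2 h, where clone A had the high share, the sums were 6935, 6826 and 6858 CPM. Many results for KO cells at 8 h are therefore given also without clone A, or without the 3 libraries rich in abundant genes. The latter leaves clone A as the sole KO 8 h library, assumed to vary like the other groups. That assumption is weak for some members. For Tpi1 the KO 8 h libraries had an SD of 11.9 CPM per kilobase of exon, against 0.859 to 3.99 in the other groups. Single members are therefore given as effect sizes from that fit, and its counts of calls borrow their spread from the other groups. At 8 h the counts for genes outside the members are given with all libraries only. The part that these libraries' composition plays in the results was not tested.

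Levels were compared between genes per kilobase of merged exon (GENCODE M21). At 0 h in KO cells Pkm (pyruvate kinase) led with 162 ± 4.08 CPM per kb (SD, n = 3), ahead of Gapdh with 136 ± 6.72 and Ldhb with 128 ± 6.53. Gapdh lay above Ldhb within each library, while the ranges of this pair over the libraries overlapped. At 0 h in WT cells Ldhb led with 172 ± 10.7 CPM per kb, ahead of Pkm with 141 ± 12.2 and Gapdh with 119 ± 5.76. At the low end were Eno2 (1.38 ± 0.314 in KO, 1.21 ± 0.0930 in WT) and Aldoc (0.871 ± 0.146 in KO, 0.588 ± 0.0320 in WT), isozymes best known from neurons. By 8 h Ldhb was down to 35.9 ± 8.74 CPM per kb in KO and 45.2 ± 4.70 in WT cells, and Pkm led in both, with 199.9 ± 28.7 in KO and 199.4 ± 3.90 in WT cells. Whether reads in introns were counted is not given in the sources used here, so these levels rank genes only roughly.

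**Figure D1:**
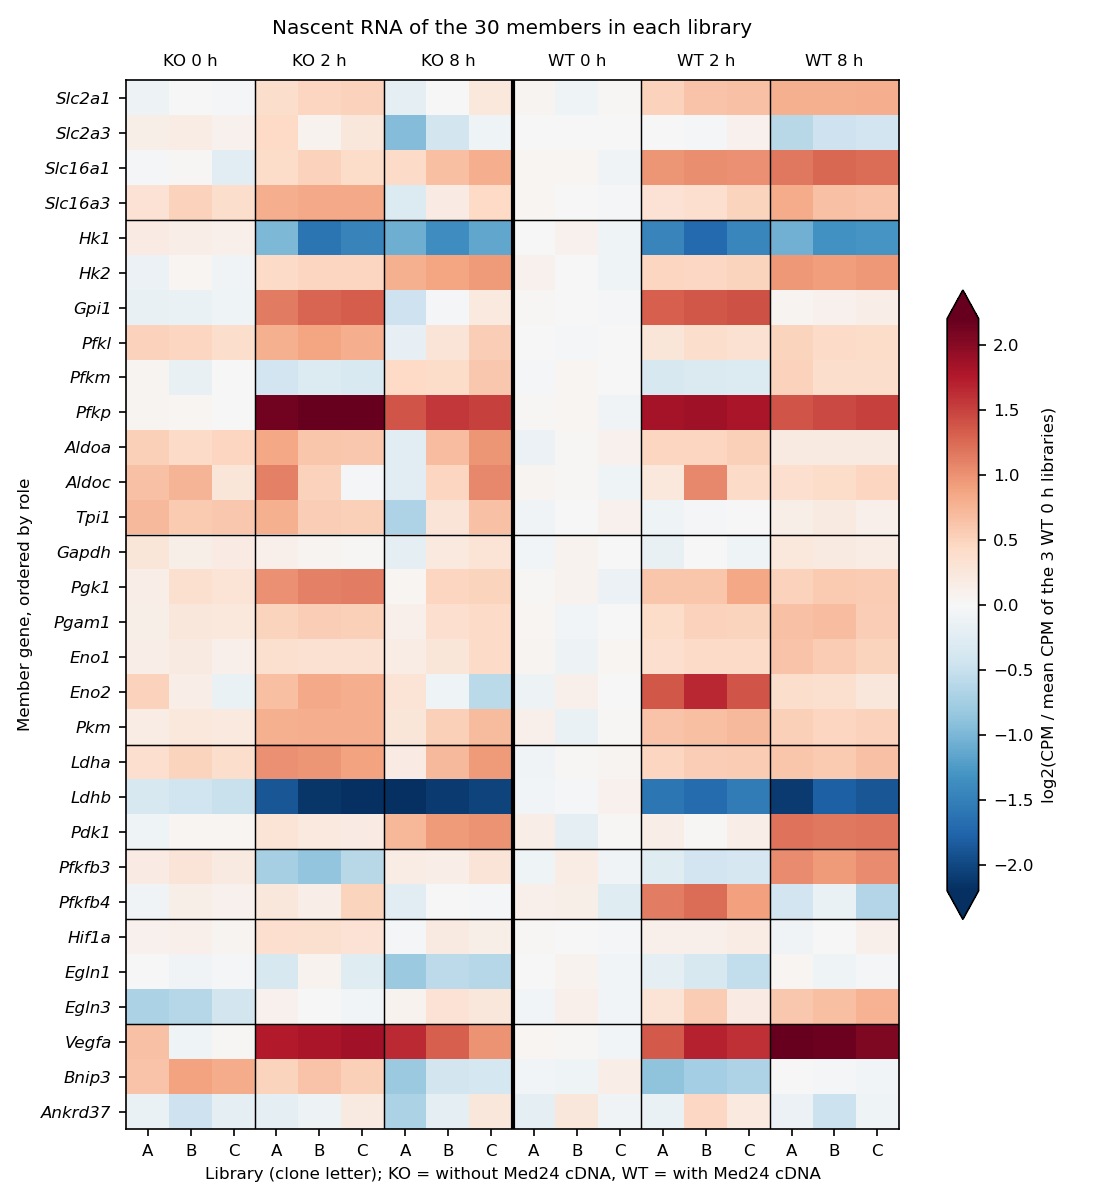
Each row is 1 of the 30 members, ordered by role, and each column 1 library (clones A, B and C of KO cells at 0, 2 and 8 h, then of WT cells). Colour gives log2 of CPM over the mean CPM of the WT 0 h libraries. After 4OHT Pfkp and Vegfa are red in all libraries, with Vegfa palest in KO 8 h clone C, and Hk1 and Ldhb are blue. KO 8 h clone A has lower values than clones B and C for Aldoa, Tpi1, Pfkl and Ldha.

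After 2 h of 4OHT, most members changed in both kinds of cell, and mostly upward relative to the other genes; after 8 h fewer members stood above their 0 h level in KO than in WT cells. In KO cells at 2 h against 0 h, 17 of 30 members rose and 5 fell, against 31.5% and 35.2% of all genes tested (edgeR's quasi-likelihood test, Benjamini-Hochberg adjusted p under 0.05 over all genes). Scaled by library size alone, which moved the median of all genes by -0.33 in this comparison, 5 members rose and 8 fell. Under that scaling 1732 of the 14128 genes tested rose, against 4446 with the TMM factors used otherwise. Changes below are log2 fold changes ± SE from the TMM-scaled fit. In WT cells at 2 h against 0 h, 18 rose and 6 fell, against 32.4% and 33.8% of all genes. In KO cells at 8 h against 0 h, 8 rose and 8 fell, against 28.2% and 29.6% of all genes, so the members' share called was near that of all genes. That count rests on clone A: without it 15 rose and 5 fell, and without the 3 libraries rich in abundant genes 7 rose and 13 fell. In WT cells at 8 h against 0 h, 17 rose and 4 fell, against 30.7% and 31.3%.

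From 2 h to 8 h the 2 kinds of cell parted. In KO cells at 8 h against 2 h, 5 members were higher and 17 lower, against 29.4% and 27.7% of all genes. Without KO 8 h clone A, Tpi1 (-0.15), Pgam1 (-0.13), Ldha (-0.13) and Pfkfb4 (-0.32) were no longer called lower. Gapdh (0.19) was then called higher, and the other members' calls stayed. In WT cells at 8 h against 2 h, 15 were higher and 8 lower, against 30.7% and 30.2%. The members' median log2 fold change at 8 h against 0 h was 0.023 in KO cells and 0.44 in WT cells, where all genes had medians of -0.022 and -0.011. The KO median was 0.19 without KO 8 h clone A and -0.22 without the 3 libraries rich in abundant genes. At 2 h the members' medians were 0.26 in KO and 0.40 in WT cells, where all genes had -0.049 and -0.019.

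A count of members whose libraries did not overlap does not use the test, but it uses the same TMM-scaled CPM and so is no check of the scaling. In KO cells at 2 h against 0 h, 19 lay wholly above and 6 wholly below, against 33.4% and 37.1% of all genes. In WT cells 19 lay above and 6 below, against 33.5% and 35.3%. In KO cells at 8 h against 0 h, 8 lay above and 5 below, against 28.4% and 31.7%. In WT cells 22 lay above and 3 below, against 33.0% and 33.5%. At 8 h against 2 h, KO cells had 4 above and 15 below, against 29.5% and 28.9%, and WT cells 18 above and 10 below, against 33.2% and 32.7%. For KO over WT, 16 lay above and 3 below at 0 h, against 15.9% and 17.1% of all genes. At 2 h 13 lay above and 7 below, against 18.6% and 19.2%. At 8 h 0 lay above and 12 below, against 18.1% and 22.1%. For Slc2a3, Aldoa, Tpi1 and Ldha, KO 8 h clone A lay below every WT 8 h library, and clones B and C above. The counts with KO 8 h libraries were not repeated without clone A.

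The balance of higher and lower members between KO and WT cells differed by time. At 0 h, 8 members were higher and 2 lower in KO than in WT cells, against 6.81% and 9.64% of all genes. At 2 h, 8 were higher and 5 lower in KO cells, against 10.8% and 12.9%. At 8 h, 0 were higher and 13 lower in KO cells, against 14.5% and 17.1%; at an unadjusted p under 0.05, 16 differed in either direction, and DESeq2 also called 0 higher. Without KO 8 h clone A, 4 members were called higher (Slc2a3, Aldoa, Tpi1 and Ldha) and 11 lower, and without the 3 libraries rich in abundant genes 0 higher and 21 lower.

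The difference between the KO and the WT response was itself tested as an interaction. At 2 h it was positive for 2 members and negative for 4, against 6.60% of all genes in each direction. Of these 6, Slc16a1, Pfkfb3 and Pfkfb4 were called under all 18 alternatives. Bnip3 and Pfkp lost their call under library size alone (adjusted p = 0.324 and 0.683), and Eno2 lost it without KO 0 h clone A (-0.72, adjusted p = 0.06). At 8 h it was positive for 0 and negative for 14, against 7.88% and 8.88%; 15 members had an unadjusted p under 0.05 and DESeq2 called 0 positive. Of the 14, 11 were called under all 18 alternatives tried, and Tpi1, Ldha and Pdk1 were not. Without KO 8 h clone A, 12 were negative and 1, Ldhb, positive; without the 3 libraries 20 were negative. These comparisons share libraries, and the 0 h groups enter several of them.

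**Figure D2:**
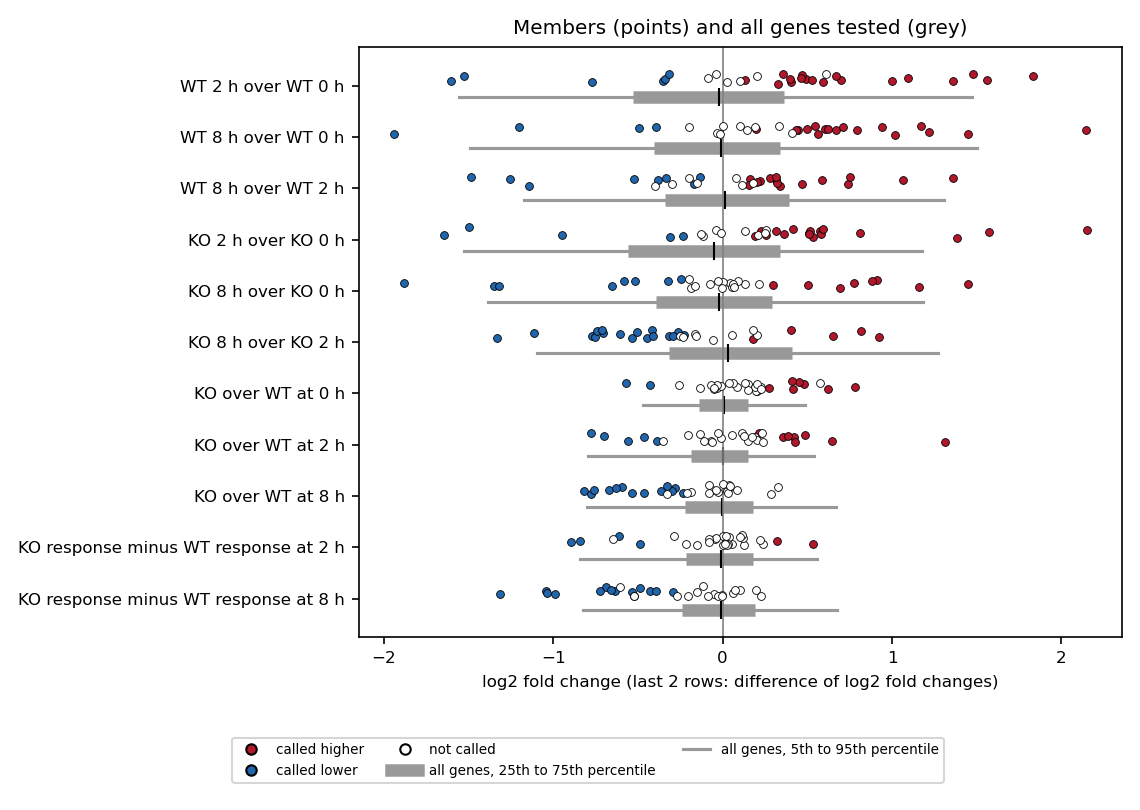
Points are the 30 members (red, called higher; blue, called lower; white, not called) and grey bars the 25th to 75th and 5th to 95th percentiles of all genes tested, with the horizontal axis in log2 fold change, or difference of log2 fold changes for the last 2 rows. For KO over WT at 8 h no point is red, and for the difference of responses at 8 h the 14 called points lie between -1.32 and -0.29.

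Counts by role are small and are to be read against the shares of all genes given above. These were 28.2% to 35.2% in each direction for changes against 0 h. For KO over WT they were 6.81% higher and 9.64% lower at 0 h, 10.8% and 12.9% at 2 h, and 14.5% and 17.1% at 8 h. For the difference of responses at 8 h they were 7.88% and 8.88%. Under library size alone 0 transporters, 2 upper and 2 lower glycolysis members rose in KO cells at 2 h, where 1732 of all 14128 genes rose. Of the 4 transporters, 3 rose at 2 h in KO cells and 3 in WT cells. At 8 h against 0 h, 1 rose and 2 fell in KO cells (2 rose and 1 fell without KO 8 h clone A), and 3 rose and 1 fell in WT cells. At 8 h 3 of the 4 were lower in KO than in WT cells. Slc2a1 encodes GLUT1, the widespread glucose importer, and had 302, 327 and 318 CPM at 0 h, 429.9, 456 and 463 at 2 h and 284, 328 and 385 at 8 h in KO cells. WT cells had 339, 308 and 334 CPM at 0 h, 463, 503 and 513 at 2 h and 562, 565 and 572 at 8 h. KO and WT libraries overlapped at 0 h and rose by 2 h, and at 8 h every KO library lay below every WT library. The log2 fold change of KO over WT at 8 h was -0.78 ± 0.07, edgeR adjusted p = 3.94e-10, and the response at 8 h differed by -0.72 ± 0.10, edgeR adjusted p = 4.67e-06. Against 0 h, the change at 8 h was 0.07 ± 0.07, edgeR adjusted p = 0.443 in KO cells, where the values overlapped, and 0.79 ± 0.07, edgeR adjusted p = 3.11e-11 in WT cells. The KO change was called without KO 8 h clone A, at 0.17 (adjusted p = 0.0196), and under library size alone it was -0.32 (adjusted p = 0.0177).

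Slc2a3, which encodes the high affinity glucose importer GLUT3, fell at 8 h in both kinds of cell. Its CPM were 689, 699 and 672 at 0 h, 849, 663 and 743 at 2 h and 326, 472 and 590.1 at 8 h in KO cells. In WT cells they were 623, 628 and 631 at 0 h, 634, 616 and 671 at 2 h and 412, 457 and 467 at 8 h. It fell at 8 h against 0 h in KO cells (-0.58 ± 0.11, edgeR adjusted p = 5.03e-05) and in WT cells (-0.50 ± 0.11, edgeR adjusted p = 0.000273). The KO fall was -0.37 without clone A and -1.06 with clone A alone. KO and WT at 8 h differed by 0.05 ± 0.11, edgeR adjusted p = 0.798. Without KO 8 h clone A the value was 0.25 (edgeR adjusted p = 0.01) and without the 3 libraries -0.45.

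The lactate carriers Slc16a1 (MCT1) and Slc16a3 (MCT4, which favours export) both responded less at 8 h in KO cells. Slc16a1 had 92.4, 95.5 and 78.8 CPM at 0 h, 124, 133 and 124 at 2 h and 125, 148 and 163 at 8 h in KO cells. WT cells had 96.2, 95.9 and 88.5 CPM at 0 h, 184, 189 and 187 at 2 h and 209.9, 224 and 219.8 at 8 h. The groups overlapped at 0 h and not at 2 or 8 h, where KO was lower (-0.56 ± 0.07, edgeR adjusted p = 2.09e-07 at 2 h; -0.60 ± 0.07, edgeR adjusted p = 4.75e-08 at 8 h). Its response was the smaller in KO cells at both times (KO minus WT -0.49 ± 0.10, edgeR adjusted p = 0.00117 at 2 h; -0.53 ± 0.10, edgeR adjusted p = 0.000503 at 8 h).

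Slc16a3 crossed over. It had 67.4, 76.5 and 70.4 CPM at 0 h, 94.2, 96.2 and 96.1 at 2 h and 43.5, 61.1 and 73.2 at 8 h in KO cells. WT cells had 55.7, 53.5 and 52.6 CPM at 0 h, 67.4, 70.1 and 75.5 at 2 h and 95.3, 84.8 and 83.7 at 8 h. KO libraries were above WT libraries at 0 h (0.41 ± 0.10, edgeR adjusted p = 0.00447) and at 2 h (0.43 ± 0.09, edgeR adjusted p = 0.000733), and below them at 8 h (-0.63 ± 0.10, edgeR adjusted p = 6.91e-06). The difference in response at 8 h was -1.04 ± 0.14, edgeR adjusted p = 2.51e-06. Without the 3 libraries rich in abundant genes KO over WT at 8 h was -1.02, and without clone A it was -0.41 (called). Under library size alone the 2 h difference was not called (0.34, adjusted p = 0.0606). Without KO 8 h clone A the fall within KO cells at 8 h against 0 h was no longer called (-0.32 with it, -0.10 without, adjusted p = 0.286).

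Of the 9 upper glycolysis members, 4 rose and 2 fell in KO cells at 2 h, and 5 rose and 2 fell in WT cells. At 8 h against 0 h, 3 rose and 3 fell in KO cells, and 4 rose and 1 fell in WT cells. The KO count was 5 and 1 without KO 8 h clone A: Gpi1 and Aldoa (0.35) were gained, and Pfkl (-0.05, adjusted p = 0.557) and Tpi1 (-0.16, adjusted p = 0.0927) no longer fell. Compared with WT cells, 3 were higher in KO cells at 0 h and at 2 h, and 1 was lower at 8 h; without KO 8 h clone A, 2 were higher and 0 lower at 8 h. Pfkp, the platelet type phosphofructokinase, had 95.2, 94.1 and 92.8 CPM at 0 h, 401, 425 and 429 at 2 h and 241, 271 and 259 at 8 h in KO cells. WT cells had 92.99, 94.8 and 87.4 CPM at 0 h, 326, 336 and 319 at 2 h and 239.8, 252 and 260.3 at 8 h. It rose at 2 h in both (KO 2.15 ± 0.06, edgeR adjusted p = 3.07e-24; WT 1.83 ± 0.06, edgeR adjusted p = 1.25e-22), further in KO cells (KO minus WT 0.32 ± 0.08, edgeR adjusted p = 0.00554), and at 8 h the 2 kinds of cell overlapped. Hk1, a hexokinase that starts the pathway, fell at 2 h in KO (-1.50 ± 0.11, edgeR adjusted p = 2.47e-13) and WT cells (-1.52 ± 0.11, edgeR adjusted p = 3.37e-13) and was still lower at 8 h, at 19.7, 16.1 and 18.9 CPM in KO and 19.8, 16.4 and 16.8 CPM in WT cells. At 0 h it had 47.2, 45.6 and 44.7 CPM in KO and 41.6, 43.99 and 38.8 CPM in WT cells. Hk1 overlaps the antisense gene Hk1os over 23112 bases.

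Hk2, the hexokinase of growing and embryonic tissue, climbed at both times in both kinds of cell. It had 433, 490.2 and 448 CPM at 0 h, 637, 654 and 660.2 at 2 h and 814, 864 and 904 at 8 h in KO cells. WT cells had 506, 473 and 443 CPM at 0 h, 658, 647 and 663 at 2 h and 917, 893 and 916 at 8 h. All 8 h libraries of each kind lay above their 2 h and 0 h libraries. The 8 h change was 0.91 ± 0.06, edgeR adjusted p = 3.41e-14 in KO and 0.94 ± 0.06, edgeR adjusted p = 8.86e-15 in WT cells, and the 2 responses differed by -0.03 ± 0.08, edgeR adjusted p = 0.867. Gpi1, which interconverts glucose and fructose phosphates, rose and returned: KO cells had 153, 155 and 160.5 CPM at 0 h, 379, 415 and 429.9 at 2 h and 125, 169 and 199.8 at 8 h. WT cells had 174, 173 and 167 CPM at 0 h, 427, 444 and 451 at 2 h and 179, 183 and 190.4 at 8 h. The 2 h libraries lay above all others of their kind. The 2 h rise was 1.39 ± 0.09, edgeR adjusted p = 5.86e-15 in KO and 1.36 ± 0.09, edgeR adjusted p = 6.35e-15 in WT cells; at 8 h against 0 h the changes of 0.05 and 0.10 did not pass (adjusted p = 0.634 and 0.303). Without KO 8 h clone A the KO change was 0.23 (called) and without the 3 libraries -0.30.

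Pfkm, the muscle phosphofructokinase, dipped at 2 h and rose at 8 h in both kinds of cell. At 8 h against 2 h it was higher by 0.82 ± 0.09, edgeR adjusted p = 1.67e-09 in KO and 0.75 ± 0.08, edgeR adjusted p = 2.22e-09 in WT cells, with 36.1, 35.1 and 40.5 CPM in KO and 37.9, 34.8 and 34.7 CPM in WT cells at 8 h. Pfkm overlaps Senp1 on the other strand over 1156 bases, and unstranded reads of the pair could not be told apart. Pfkl, the liver phosphofructokinase, had 161, 157 and 149 CPM at 0 h, 194, 208 and 197 at 2 h and 99.8, 138 and 165 at 8 h in KO cells. WT cells had 114, 112 and 115 CPM at 0 h, 137, 149 and 143 at 2 h and 159.98, 152 and 150.5 at 8 h. KO libraries lay wholly above WT libraries at 0 and 2 h and overlapped them at 8 h. KO over WT was 0.45 ± 0.09, edgeR adjusted p = 0.000692 at 0 h and 0.48 ± 0.09, edgeR adjusted p = 7.58e-05 at 2 h. The response at 8 h was the smaller in KO cells (-0.69 ± 0.13, edgeR adjusted p = 0.000298). The 8 h difference of -0.23 (adjusted p = 0.0476) was lost without KO 8 h clone A (-0.04, adjusted p = 0.698), without KO 8 h clone B or any 1 of the WT 8 h libraries, with RLE factors and with DESeq2.

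Tpi1 and Aldoa, the triosephosphate isomerase and the main aldolase, spread widely among KO libraries at 8 h. Tpi1 had 112, 102 and 104 CPM at 0 h, 118, 100.02 and 98.6 at 2 h and 42.9, 84.05 and 108 at 8 h in KO cells. WT cells had 64.8, 68.5 and 73.01 CPM at 0 h, 64.5, 67.6 and 69.1 at 2 h and 75.3, 78.8 and 74.03 at 8 h. KO libraries lay wholly above WT libraries at 0 and 2 h, and at 8 h on both sides of them. KO over WT was 0.62 ± 0.15, edgeR adjusted p = 0.00337 at 0 h and 0.65 ± 0.15, edgeR adjusted p = 0.00114 at 2 h. At 8 h KO over WT was -0.04 (adjusted p = 0.885). It was 0.32 without clone A (edgeR adjusted p = 0.00199) and -0.82 with clone A alone. Its direction at 8 h thus rests on which KO library is read. Aldoa had 117, 221 and 269 CPM in KO and 157, 157 and 157 CPM in WT cells at 8 h. KO over WT was 0.33 (edgeR adjusted p = 0.0772), 0.64 without clone A (called) and -0.43 with clone A alone. At 0 h Aldoa had 199, 185 and 192 CPM in KO and 126, 139.8 and 147 CPM in WT cells (0.48 ± 0.14, edgeR adjusted p = 0.0204). That call was lost with DESeq2 (adjusted p = 0.128) and without KO 0 h clone A or C or WT 0 h clone A or B (0.41 to 0.48). Aldoa overlaps Fam57b on the other strand over 3084 bases and has annotated pseudogenes, so its counts are uncertain. Aldoc stayed between 1.61 and 4.12 CPM in all 18 libraries and was called in no comparison.

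**Figure D3:**
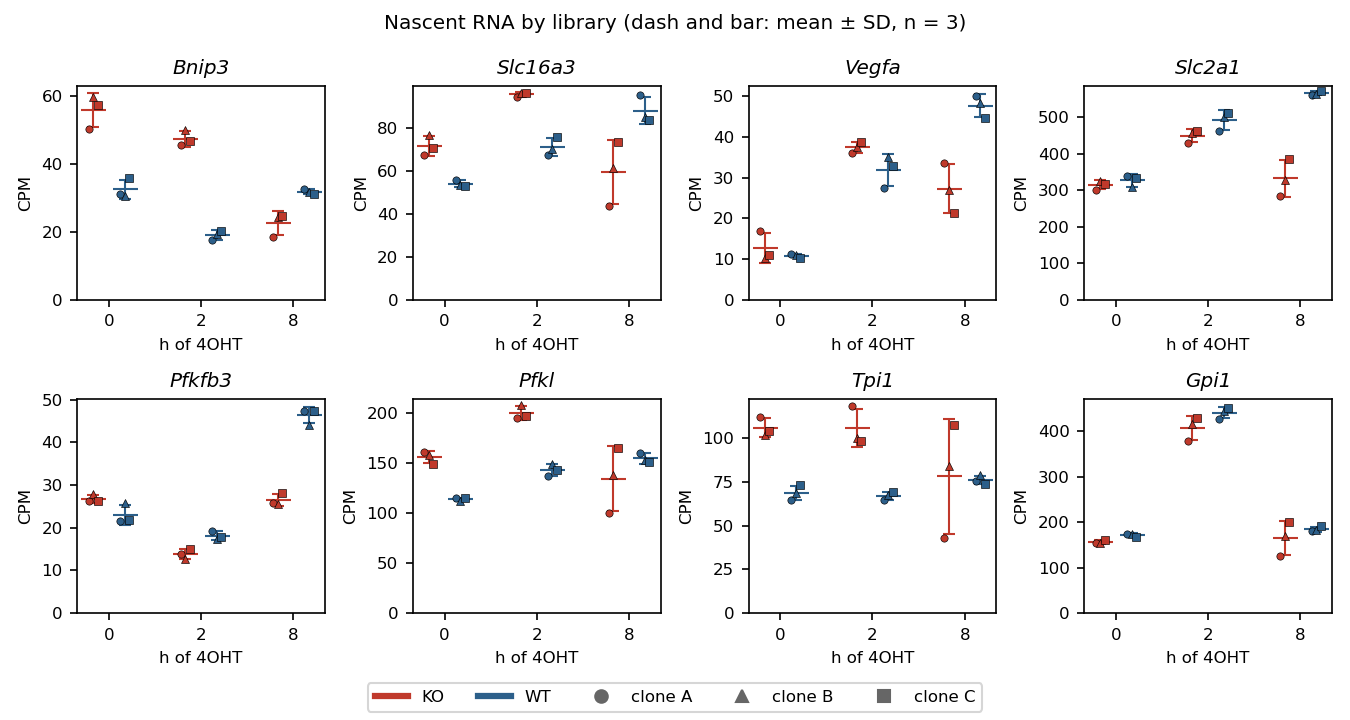
Vertical axes give CPM and horizontal axes hours of 4OHT for 8 members; symbols are clones A, B and C, dashes and bars mean ± SD (n = 3), with KO in red on the left and WT in blue. At 8 h Bnip3, Slc16a3, Vegfa, Slc2a1 and Pfkfb3 lie lower in every KO than in every WT library, while for Pfkl, Tpi1 and Gpi1 the groups overlap and KO clone A is the lowest point at that time.

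Of the 6 lower glycolysis members, 5 rose at 2 h in KO cells and 5 in WT cells, and none fell in either. By 8 h 1 stood above its 0 h level in KO cells and 5 in WT cells. The KO number was 4 without KO 8 h clone A, with Pgk1 (0.21), Pgam1 (0.19) and Eno1 (0.20) gained, and with clone A alone 0 rose and 2 fell. The 8 h response was smaller in KO cells for 3 of them, against 8.88% of all genes, and for 4 without clone A. Pgk1, the first ATP yielding step, had 132, 153 and 147 CPM at 0 h, 239, 258 and 259 at 2 h and 122, 166 and 167 at 8 h in KO cells. WT cells had 122, 126 and 109 CPM at 0 h, 181, 182 and 216 at 2 h and 169, 177 and 175 at 8 h. KO libraries lay above WT libraries at 0 and 2 h and below them at 8 h. The 2 h rise was 0.81 ± 0.08, edgeR adjusted p = 4.66e-10 in KO and 0.70 ± 0.08, edgeR adjusted p = 1.82e-08 in WT cells. The response at 8 h was the smaller in KO cells (KO minus WT -0.49 ± 0.12, edgeR adjusted p = 0.00519). KO over WT at 8 h was -0.21 (adjusted p = 0.0558), and with the clone letter as a block it was -0.21 (adjusted p = 0.0266) and called. Pgam1, the phosphoglycerate mutase, and Eno1, the main enolase, had 8 h responses smaller in KO cells (KO minus WT -0.53 and -0.43; edgeR adjusted p = 9.59e-05 and 0.000683). At 8 h Pgam1 had 89.4, 107 and 111 CPM in KO and 128, 132 and 120.3 CPM in WT cells. Eno1 had 441, 477 and 531 CPM in KO and 611, 583 and 558 CPM in WT cells at that time. The KO groups were below the WT groups without overlap for both genes. A near identical copy of Eno1, Eno1b, is also in the table, and Pgk1, Pgam1, Ldha, Gapdh and Aldoa have annotated pseudogenes, so reads could be split between copies.

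Pkm, the last step, rose at 2 h by 0.59 ± 0.07, edgeR adjusted p = 4.29e-08 in KO and 0.67 ± 0.08, edgeR adjusted p = 3.93e-09 in WT cells. It had 789.8, 829.6 and 817 CPM at 0 h, 1214, 1233 and 1226 at 2 h and 850.4, 1012 and 1137 at 8 h in KO cells. WT cells had 762, 640.1 and 714 CPM at 0 h, 1093, 1117 and 1155 at 2 h and 1015, 976 and 1000.1 at 8 h. The 2 h libraries were the highest of each kind. At 8 h against 2 h the WT change was -0.17 ± 0.07, edgeR adjusted p = 0.0498, and with the clone letter as a block -0.17 with adjusted p = 0.0529, no longer called. That call was also lost when any 1 of the WT 2 h or 8 h libraries was left out. At 8 h against 0 h in KO cells it was higher by 0.30 ± 0.08, edgeR adjusted p = 0.00119. With clone A alone it was 0.08, and under library size alone the sign turned to -0.10. Gapdh, often used as a reference gene, had 536 ± 94.1 CPM in KO and 564 ± 14.98 CPM in WT cells at 8 h (SD, n = 3); it was called higher in WT cells at 8 h against 0 h (0.20 ± 0.08, edgeR adjusted p = 0.0296) and against 2 h, and in no other comparison. Its 8 h call against 0 h was lost without WT 0 h clone A or C, WT 8 h clone A or B (0.16 to 0.19), and under library size alone.

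Eno2, the neuronal enolase, was low and changed most at 2 h. It had 8.04, 6.26 and 5.11 CPM at 0 h, 9.01, 10.2 and 9.86 at 2 h and 6.95, 5.33 and 3.77 at 8 h in KO cells. WT cells had 5.26, 6.13 and 5.64 CPM at 0 h, 14.7, 18.02 and 14.8 at 2 h and 7.38, 7.21 and 6.73 at 8 h. KO libraries at 2 h lay below every WT library at 2 h (-0.70 ± 0.14, edgeR adjusted p = 0.000385). Its 2 h response was the smaller in KO cells (KO minus WT -0.89 ± 0.24, edgeR adjusted p = 0.00919), a call that was lost without KO 0 h clone A.

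In the pyruvate and lactate branch 2 of 3 members rose and 1 fell in KO cells at 2 h, and 1 rose and 1 fell in WT cells. At 8 h 2, Ldhb and Pdk1, were lower in KO than in WT cells. For Ldhb this was -0.37, and without KO 8 h clone A it was not called (-0.13, adjusted p = 0.314). Ldhb, whose subunit favours pyruvate formation, had 212, 198 and 192 CPM at 0 h, 73.4, 61.3 and 59.1 at 2 h and 40.7, 62.6 and 66.03 at 8 h in KO cells. WT cells had 258, 261 and 289 CPM at 0 h, 89.3, 83.7 and 92.9 at 2 h and 62.8, 77.2 and 72.9 at 8 h. All 2 h and 8 h libraries lay below the 0 h libraries of their kind. Ldhb fell in both (8 h: KO -1.88 ± 0.10, edgeR adjusted p = 6.06e-16; WT -1.94 ± 0.10, edgeR adjusted p = 1.57e-17), and started lower in KO cells (-0.43 ± 0.09, edgeR adjusted p = 0.000976). Ldha, whose subunit favours lactate formation, had 268, 292 and 271 CPM at 0 h, 416, 406 and 382 at 2 h and 237, 342 and 396 at 8 h in KO cells. WT cells had 196, 211 and 217 CPM at 0 h, 289.8, 304 and 305 at 2 h and 316, 309 and 325 at 8 h. It was higher in KO at 0 h (0.42 ± 0.10, edgeR adjusted p = 0.00324) and 2 h (0.42 ± 0.09, edgeR adjusted p = 0.00104), without overlap; under library size alone the 2 h call was lost (0.33, adjusted p = 0.0521). At 8 h the KO libraries lay on both sides of the WT ones, with KO over WT at 0.02 (adjusted p = 0.886), 0.22 without clone A and -0.42 with clone A alone. For Ldha at 8 h against 0 h in KO cells, the change of 0.21 (adjusted p = 0.0559) was called with the clone letter as a block (adjusted p = 0.0481). It was 0.41 without clone A (called) and -0.21 with clone A alone. Per kilobase of exon, Ldha made up 39.6% ± 1.9, 74.7% ± 1.6 and 73.2% ± 0.93 of the pair at 0, 2 and 8 h in KO cells, against 26.8% ± 0.75, 61.6% ± 1.5 and 67.9% ± 2.5 in WT cells (SD, n = 3). These shares depend on the exon lengths, 3.31 kb for Ldha and 1.57 kb for Ldhb. In CPM not divided by length, Ldha lay above Ldhb at 0 h in KO cells and below it in WT cells.

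Pdk1, which inhibits pyruvate dehydrogenase and so holds pyruvate back from mitochondria, was higher at 8 h than at 2 h in both kinds of cell (KO 0.65, WT 1.06). It had 56.8, 62.5 and 62.5 CPM at 0 h, 74.5, 70.5 and 68.5 at 2 h and 101, 116 and 121 at 8 h in KO cells. WT cells had 67.2, 53.2 and 61.8 CPM at 0 h, 67.002, 62.1 and 67.4 at 2 h and 139, 136 and 137 at 8 h. At 2 h against 0 h it rose in KO cells (0.23, edgeR adjusted p = 0.00719; -0.06 under library size alone), and in WT cells 0.11 was not called. The 8 h rise was 0.88 ± 0.07, edgeR adjusted p = 5.21e-12 in KO and 1.17 ± 0.07, edgeR adjusted p = 1.47e-15 in WT cells. All KO libraries were below all WT libraries at 8 h (-0.30 ± 0.07, edgeR adjusted p = 0.000688). The difference in response, -0.29 ± 0.10, edgeR adjusted p = 0.0423, was lost without KO 8 h clone A (-0.20, adjusted p = 0.15), with RLE factors or DESeq2, and in 7 more of the 12 leave-outs.

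**Figure D4:**
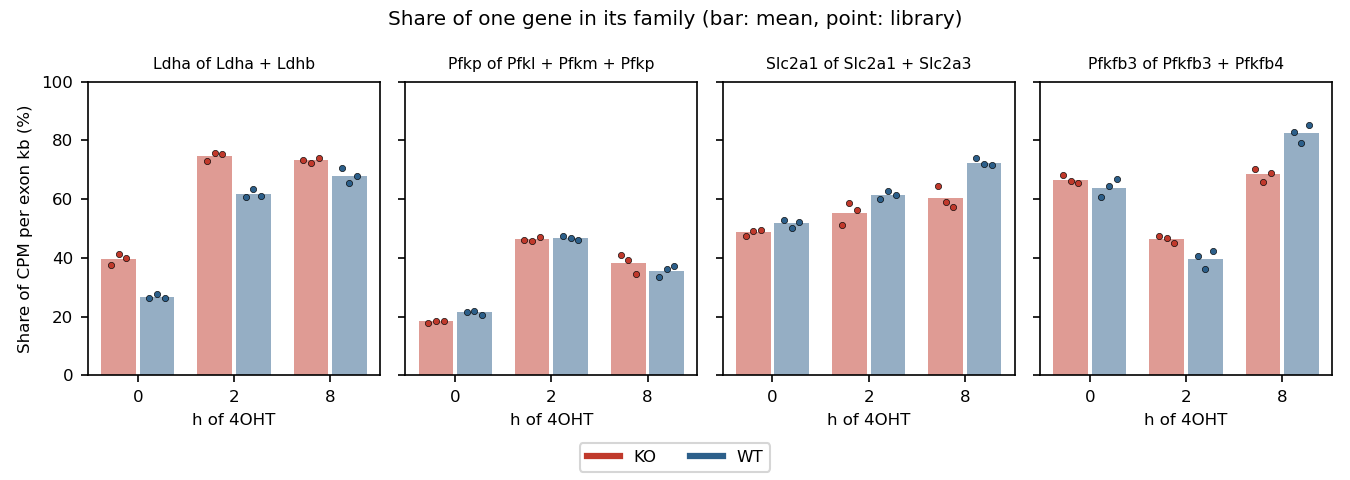
Bars give the mean and points the libraries' share (vertical axis, percent of CPM per exon kilobase) that Ldha, Pfkp, Slc2a1 and Pfkfb3 hold of their families at 0, 2 and 8 h of 4OHT, with KO bars left of WT bars. The Ldha share is higher in every KO than in every WT library at 0 h, and at 8 h Slc2a1 and Pfkfb3 hold 60.2% and 68.4% in KO cells against 72.4% and 82.4% in WT cells. Shares depend on the exon lengths used as divisors.

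The fructose bisphosphate regulators Pfkfb3 and Pfkfb4, which set the level of the main activator of phosphofructokinase, changed at different times. At 2 h 0 rose and 1 fell in KO cells, and 1 rose and 1 fell in WT cells. Pfkfb3 had 26.2, 27.9 and 26.3 CPM at 0 h, 13.9, 12.6 and 15.01 at 2 h and 25.9, 25.5 and 28.1 at 8 h in KO cells. WT cells had 21.5, 25.8 and 21.7 CPM at 0 h, 19.2, 17.3 and 17.9 at 2 h and 47.4, 44.1 and 47.5 at 8 h. It fell at 2 h in both (KO -0.95 ± 0.10, edgeR adjusted p = 4.53e-10; WT -0.34 ± 0.09, edgeR adjusted p = 0.00238), more so in KO cells (KO minus WT -0.61 ± 0.14, edgeR adjusted p = 0.00195). At 8 h it rose above its 0 h level in WT cells (1.02 ± 0.08, edgeR adjusted p = 2.41e-12) and the change in KO cells did not pass (-0.03 ± 0.09, edgeR adjusted p = 0.826), a difference in response of -1.04 ± 0.12, edgeR adjusted p = 2.19e-07. KO over WT at 8 h was -0.82 ± 0.08, edgeR adjusted p = 2.32e-09, with no overlap. The gene Pfkfb3 overlaps the antisense gene Gm10851 over 9131 bases.

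Pfkfb4 had 7.93, 9.19 and 8.997 CPM at 0 h, 9.92, 9.33 and 11.7 at 2 h and 7.05, 8.49 and 8.18 at 8 h in KO cells. WT cells had 9.01, 9.19 and 6.96 CPM at 0 h, 18.2, 19.6 and 15.8 at 2 h and 6.27, 7.59 and 5.34 at 8 h. Its transient rise was seen in WT cells (1.09 ± 0.14, edgeR adjusted p = 4.2e-08) and did not pass the test in KO cells (0.25 ± 0.15, edgeR adjusted p = 0.134); the responses differed by -0.84 ± 0.20, edgeR adjusted p = 0.00459.

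Of the 3 genes of the HIF factor and its hydroxylases, 2 rose and 0 fell in KO cells at 2 h, and 2 rose and 1 fell in WT cells. At 8 h 0 were higher and 2 lower in KO than in WT cells, and 1 was lower without KO 8 h clone A. Hif1a changed by at most 0.26 (log2) in either direction in any comparison. It had 83.2, 84.5 and 81.6 CPM at 0 h, 101, 100.3 and 97.7 at 2 h and 76.5, 89.4 and 85.1 at 8 h in KO cells. WT cells had 79.3, 78.9 and 76.5 CPM at 0 h, 84.6, 84.8 and 88.004 at 2 h and 73.98, 77.5 and 84.4 at 8 h. KO libraries lay above WT libraries at 0 and 2 h and overlapped them at 8 h. The 2 h rise was 0.26 ± 0.06, edgeR adjusted p = 0.00022 in KO and 0.13 ± 0.06, edgeR adjusted p = 0.047 in WT cells. Scaled by library size alone the values were -0.026 and -0.025, and the WT call was also lost with DESeq2, with no low count filter and when any 1 of the WT 0 h or 2 h libraries was left out. In WT cells the change at 8 h against 2 h was -0.13 ± 0.06, edgeR adjusted p = 0.047, and adjusted p = 0.0522 with the clone letter as a block. DESeq2, no filter, library size alone and 5 of 6 leave-outs also ended that call. The antisense gene Gm15283 overlaps Hif1a over 46156 bases, so reads of the pair could not be told apart unless counted by strand. Gm49321, annotated as protein coding, overlaps Hif1a on the same strand over 9878 bases, which counting by strand would not separate. HIF is controlled mainly through protein stability, which these counts do not measure.

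Of the hydroxylases, Egln1 (PHD2, the main oxygen sensor for HIF) fell at 8 h in KO cells (-0.65 ± 0.11, edgeR adjusted p = 4.92e-06), while the WT change of -0.01 did not pass (adjusted p = 0.913). It had 32.3, 30.4 and 31.2 CPM at 0 h, 25.2, 34.01 and 26.8 at 2 h and 18.3, 21.5 and 20.8 at 8 h in KO cells. WT cells had 31.9, 33.7 and 30.7 CPM at 0 h, 28.2, 25.3 and 22.1 at 2 h and 33.1, 30.2 and 31.4 at 8 h. KO libraries were below WT libraries at 8 h (-0.67 ± 0.10, edgeR adjusted p = 6.99e-06), and the responses differed by -0.64 ± 0.14, edgeR adjusted p = 0.00199. Egln3 (PHD3) was lower in KO at 0 h (-0.57 ± 0.16, edgeR adjusted p = 0.0155), a call lost without KO 0 h clone A or B or WT 0 h clone B (-0.54 to -0.51) and under library size alone. It rose in both kinds of cell at 8 h (KO 0.77 ± 0.16, edgeR adjusted p = 0.00015; WT 0.67 ± 0.14, edgeR adjusted p = 8.3e-05); under library size alone the KO rise was not called (0.42, adjusted p = 0.0694). At 8 h it had 7.46, 8.82 and 8.38 CPM in KO and 10.7, 11.1 and 11.95 CPM in WT cells (-0.46 ± 0.14, edgeR adjusted p = 0.00925), and without KO 8 h clone A this difference was -0.37 (adjusted p = 0.0916).

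Of the 3 HIF targets outside glycolysis, 1 rose and 1 fell at 2 h in each kind of cell, and at 8 h 2 were lower in KO than in WT cells. Vegfa, the vascular growth factor and a classic HIF target, had 16.9, 10.2 and 11.1 CPM at 0 h, 36.2, 37.6 and 38.9 at 2 h and 33.6, 26.96 and 21.4 at 8 h in KO cells. WT cells had 11.1, 10.998 and 10.3 CPM at 0 h, 27.5, 35.03 and 32.96 at 2 h and 50.1, 48.4 and 44.7 at 8 h. The 2 h rise was 1.57 ± 0.14, edgeR adjusted p = 1.5e-11 in KO and 1.56 ± 0.15, edgeR adjusted p = 8.49e-11 in WT cells, and from 2 h to 8 h Vegfa fell in KO cells (-0.41 ± 0.12, edgeR adjusted p = 0.00558) and rose in WT cells (0.59 ± 0.11, edgeR adjusted p = 3.81e-05). The KO fall was -0.63 without KO 8 h clone A, and -0.20 without the 3 libraries rich in abundant genes. At 8 h no KO library reached the lowest WT library, and KO over WT was -0.76 ± 0.12, edgeR adjusted p = 6.9e-06. The 8 h responses differed by -0.99 ± 0.21, edgeR adjusted p = 0.00103.

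Bnip3, which marks mitochondria for autophagy, changed sides. It had 50.3, 59.9 and 57.5 CPM at 0 h, 45.5, 49.95 and 46.9 at 2 h and 18.5, 24.5 and 24.7 at 8 h in KO cells. WT cells had 31.2, 30.6 and 35.8 CPM at 0 h, 17.6, 19.3 and 20.3 at 2 h and 32.5, 31.8 and 31.1 at 8 h. KO libraries were higher without overlap at 0 h (0.78 ± 0.09, edgeR adjusted p = 1.05e-07) and 2 h (1.31 ± 0.10, edgeR adjusted p = 2.13e-12) and lower without overlap at 8 h (-0.54 ± 0.10, edgeR adjusted p = 0.000102). WT cells dipped at 2 h (-0.77 ± 0.10, edgeR adjusted p = 8.73e-08) and their 8 h change did not pass (-0.03 ± 0.09, edgeR adjusted p = 0.778), while KO cells fell (-1.35 ± 0.10, edgeR adjusted p = 2.3e-13), and the 8 h responses differed by -1.32 ± 0.13, edgeR adjusted p = 1.82e-08, the most negative value among the 30. Without KO 8 h clone A, KO over WT for Bnip3 at 8 h was -0.38. The 8 h responses then differed by -1.15 for Bnip3 and by -1.19 for Vegfa. Bnip3 overlaps the antisense gene Gm45507 over 3712 bases. Ankrd37, another HIF target, stayed between 2.82 and 6.26 CPM and was called in no comparison.

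**Figure D5:**
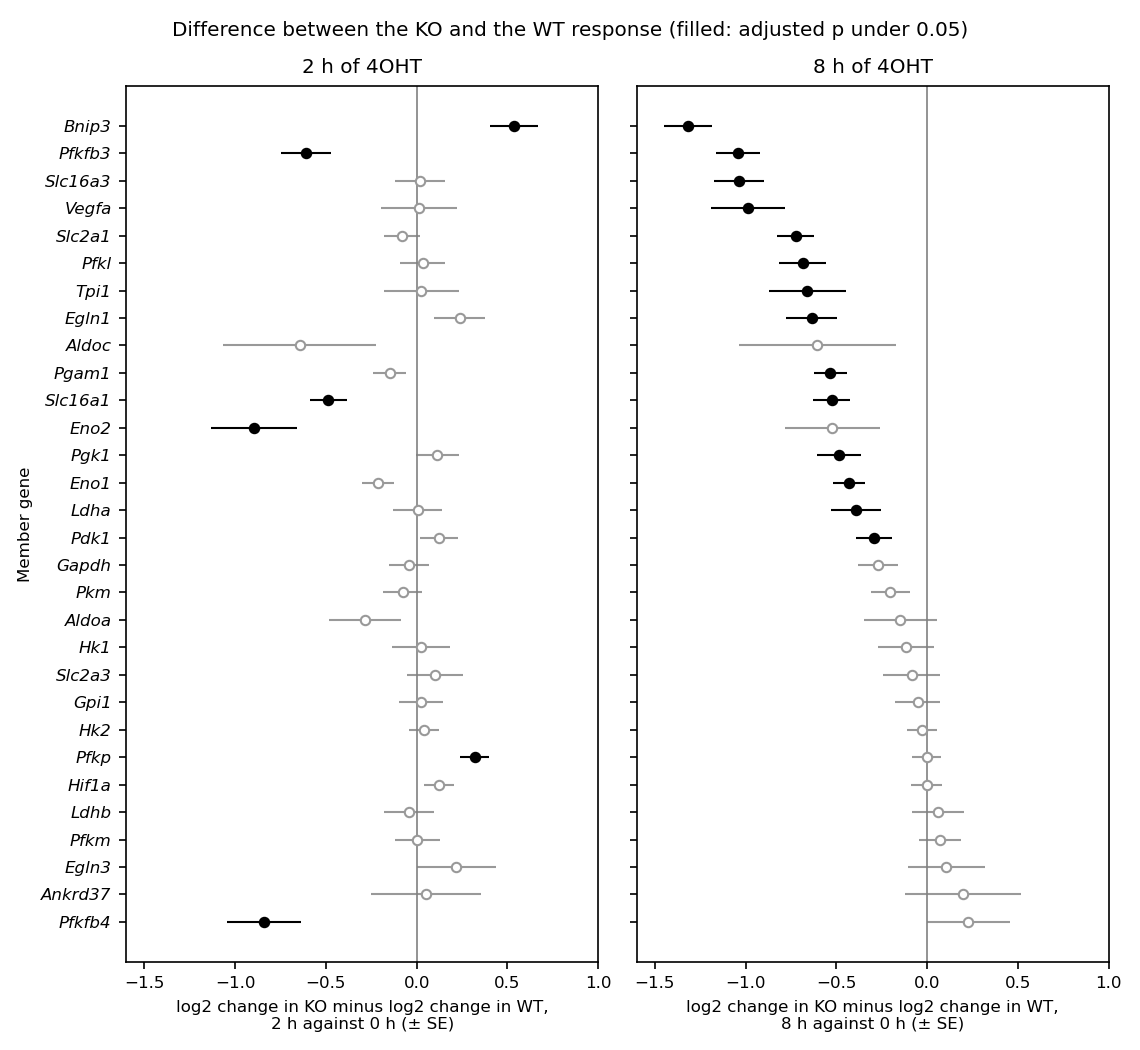
Points give the log2 change in KO minus the log2 change in WT cells (horizontal axis, ± SE) for each member at 2 h (left) and 8 h (right), sorted by the 8 h value; filled points have an adjusted p under 0.05. At 8 h Bnip3, Pfkfb3, Slc16a3, Vegfa and Slc2a1 are farthest to the left, and at 2 h Eno2, Pfkfb4, Pfkfb3 and Slc16a1 are filled on the left and Bnip3 and Pfkp on the right.

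Promoters were read because HIF and MYC bind core elements that share letters. The 250 bases before each RefSeq start (GRCm38.p6) were searched for ACGTG and GCGTG on both strands (CACGT and CACGC on the printed strand), and for CACGTG, inside which ACGTG and CACGT overlap and were both counted. Of the 29 members with a promoter entry, 26 (89.7%) held ACGTG or GCGTG in at least 1 window, against 60.0% of the 10790 genes tested with an entry. CACGTG was held by 6 of 29 (20.7%), against 9.68%. By window the shares were 79.1% of 43 for members and 54.1% for genes tested. Median GC content was 60.4% for members' windows and 59.6% for those of genes tested. Printed below are the windows of the 3 members whose 8 h response fell shortest in KO cells (for Pfkfb3 the one of its windows with more matches), then that of Ldha, which ties with Bnip3 for the most matches (5), and that of Gpi1, which has none and whose 8 h responses were not called different. Capitals mark the matches.
Bnip3, chr7:138909507-138909756, minus strand: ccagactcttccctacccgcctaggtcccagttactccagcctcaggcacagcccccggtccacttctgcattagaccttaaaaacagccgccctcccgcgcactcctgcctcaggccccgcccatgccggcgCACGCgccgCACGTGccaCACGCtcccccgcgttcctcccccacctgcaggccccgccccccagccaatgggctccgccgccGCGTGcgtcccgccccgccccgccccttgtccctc
Pfkfb3, chr2:11502091-11502340, minus strand: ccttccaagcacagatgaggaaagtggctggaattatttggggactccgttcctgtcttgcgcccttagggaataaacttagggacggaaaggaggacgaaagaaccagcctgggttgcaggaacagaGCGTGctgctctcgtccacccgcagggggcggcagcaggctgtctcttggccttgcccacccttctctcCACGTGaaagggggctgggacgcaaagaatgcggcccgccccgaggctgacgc
Slc16a3, chr11:120948817-120949066, plus strand: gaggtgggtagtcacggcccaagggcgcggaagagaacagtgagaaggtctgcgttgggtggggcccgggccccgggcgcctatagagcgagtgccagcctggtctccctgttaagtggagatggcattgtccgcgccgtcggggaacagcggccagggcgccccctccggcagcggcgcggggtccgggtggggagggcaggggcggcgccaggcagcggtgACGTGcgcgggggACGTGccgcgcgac
Ldha, chr7:46845554-46845803, plus strand: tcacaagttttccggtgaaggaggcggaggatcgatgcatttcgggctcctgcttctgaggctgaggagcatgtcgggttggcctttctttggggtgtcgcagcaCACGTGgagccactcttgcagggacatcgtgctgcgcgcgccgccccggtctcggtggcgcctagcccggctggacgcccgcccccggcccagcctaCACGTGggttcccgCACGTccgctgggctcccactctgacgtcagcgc
Gpi1, chr7:34230337-34230586, minus strand: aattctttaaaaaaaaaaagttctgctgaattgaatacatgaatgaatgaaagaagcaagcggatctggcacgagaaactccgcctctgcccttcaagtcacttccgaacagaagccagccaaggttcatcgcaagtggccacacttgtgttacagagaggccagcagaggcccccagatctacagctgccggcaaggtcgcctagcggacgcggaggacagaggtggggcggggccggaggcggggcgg
A match is a description of letters in the window and shows neither binding nor a cause. Vegfa, whose response at 8 h was among the 5 most reduced, has no match in the window before its first start and 2 in the window before its other start.

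Genes of the same pathways outside the members were read from lists chosen with earlier results of these data known. Of 15 tested HIF pathway regulators, 9 rose and 1 fell at 2 h in KO cells, and 9 rose and 3 fell in WT cells, against the 31.5% and 35.2% (KO) and 32.4% and 33.8% (WT) of all genes. Under library size alone 3 rose and 3 fell in KO cells, where 1732 of all 14128 genes rose. Epas1, which encodes HIF2A, had 166, 168 and 169.6 CPM in KO and 81.2, 84.7 and 83.1 CPM in WT cells at 2 h (1.01 ± 0.05, edgeR adjusted p = 3.35e-16) and was also higher in KO cells at 0 h (0.36) and 8 h (0.63). Of 26 tested other HIF targets, 4 had a higher and 7 a lower 8 h response in KO cells, against 7.88% and 8.88% of all genes. In the level of KO over WT at 8 h, Bhlhe40, a transcriptional repressor, had the smallest adjusted p of these targets. It had 22.1, 27.5 and 28.5 CPM in KO and 74.1, 81.7 and 85.4 CPM in WT cells at 8 h (KO over WT -1.65 ± 0.08, edgeR adjusted p = 9.83e-16). Its 2 h response was smaller in KO cells (KO minus WT -1.72 ± 0.14, edgeR adjusted p = 2.04e-10).

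Other parts of glucose metabolism were counted in the same way. Of 9 tested genes of pyruvate dehydrogenase and the mitochondrial pyruvate carrier, 0 had an 8 h response called different by edgeR, and of 16 tricarboxylic acid cycle genes 1 was higher and 1 lower, near the 7.88% and 8.88% of all genes. Of 6 tested pentose phosphate genes, 1 was higher and 2 were lower. Pgd had 64.7, 72.9 and 73.4 CPM in KO and 92.3, 88.04 and 89.1 CPM in WT cells at 8 h. Its level in KO over WT cells at 8 h, which is not the response, differed by -0.37 ± 0.07, edgeR adjusted p = 6.03e-05. Of the 8 MYC and MondoA regulators, Myc rose to 73.7, 75.6 and 93.5 CPM in KO and 92.3, 93.1 and 91.1 CPM in WT cells at 8 h (2.92 ± 0.10, edgeR adjusted p = 3.31e-21 in KO; 3.05 ± 0.10, edgeR adjusted p = 2.15e-22 in WT), and its 2 h response was smaller in KO cells (-0.69 ± 0.16, edgeR adjusted p = 0.00422). Txnip, which restrains glucose uptake, had 255, 187 and 177 CPM in KO and 165, 155 and 158 CPM in WT cells at 8 h (0.39 ± 0.09, edgeR adjusted p = 0.00196). Clone A was the highest KO library, and without it the difference was 0.19 and not called (adjusted p = 0.0649); with clone A alone it was 0.68.

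Markers of other cell types also differed between KO and WT cells. The summed level of 7 primitive endoderm markers was 135 to 188 CPM in KO and 73.9 to 78.3 CPM in WT cells at 8 h, and 229 to 255 CPM in KO and 121 to 130 CPM in WT cells at 0 h. The summed level of 6 trophectoderm markers at 8 h was 449 to 499 CPM in KO and 611 to 665 CPM in WT cells. At 0 h they summed to 178 to 188 CPM in KO and 160 to 174 CPM in WT cells, so the KO sum was higher at 0 h and lower at 8 h. Only 1 of the 7 endoderm and 3 of the 6 trophectoderm markers exceeded 5 CPM in every library, so a sum can rest on few genes. At 0 h Tead4 was the only trophectoderm marker called (0.48), while Cdx2 (-0.80) and Tfap2c (-0.18) were below 0 and not called. At 8 h Cdx2, Tead4 and Gata3 were called lower in KO cells, and Eomes and Tfap2c were not called. At 2 h the endoderm markers summed to 144 to 201 CPM in KO and 52.3 to 62.3 CPM in WT cells, and the trophectoderm markers to 121 to 145 CPM in KO and 363 to 382 CPM in WT cells. The 10 stem cell markers summed to 2786 to 2808 CPM in KO and 3038 to 3090.3 CPM in WT cells at 0 h, to 2157 to 2386 CPM in KO and 1869 to 1896 CPM in WT cells at 2 h, and to 2198 to 2572 CPM in KO and 2044 to 2127 CPM in WT cells at 8 h. No marker of the endoderm and trophectoderm lists was at 0 in all libraries, and their part in the members' differences was not tested.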

How the data were processed

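The authors deposited raw whole-number read counts per gene symbol for 18 libraries of captured nascent RNA. Per the submitters' processing notes the tools were STAR, featureCounts and DESeq with build mm10, without versions; no source used here gives the annotation, strand setting or treatment of introns, so reads of overlapping genes may be mixed.

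Counts were analysed with edgeR 4.0.16 (limma 3.58.1, R 4.3.3): filterByExpr kept 14128 of 25897 symbols, TMM factors scaled the libraries, and 1 quasi-likelihood fit of 6 group means gave 11 contrasts, with Benjamini-Hochberg adjustment over all genes tested at a threshold of 0.05. Errors of log2 fold changes are SEs, and CPM use TMM-scaled library sizes. The fit was tested on simulated data. Alternatives were DESeq2 1.42.0 (RLE size factors, and its own test), library size alone, no low count filter, the clone letter as a block, and leaving out libraries. The same alternatives for counts by role and for genes outside the members were added after seeing the data.

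Libraries of 1 letter come from clones labelled alike; their deviations from the group means correlated by 0.018 on average (-0.13 to 0.096 over 45 pairs), and the best correlation was within the letter for 14 of the 18. No replicate pair agreed within sampling noise. Gene positions came from GENCODE M21 (GRCm38), and promoters from RefSeq GRCm38.p6, where 29 of 30 members matched.

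The members, lists and tests were chosen with earlier results of these data known. In each comparison the named members are at most 8 called with the largest absolute log2 fold change and a mean of at least 5 CPM, and at most 5 in the interactions; others were added to complete a role group after their values were seen.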

Additional observations from a re-analysis of the deposited data

Results flagged for a closer look

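At 2 h, 6 members had a response to 4OHT that differed between KO and WT cells by the interaction test, against 6.60% of all genes in each direction. The KO response minus the WT response, in log2, was 0.54 for Bnip3 and 0.32 for Pfkp. It was -0.89 for Eno2, -0.84 for Pfkfb4, -0.61 for Pfkfb3 and -0.49 for Slc16a1. Slc16a1, Pfkfb3 and Pfkfb4 were called under all 18 alternatives; Eno2 was lost without KO 0 h clone A, and Bnip3 and Pfkp under library size alone.

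At 8 h, 14 members differed by the same test, all with the smaller value in KO cells, against 8.88% of all genes lower and 7.88% higher. The difference was -1.32 for Bnip3, -1.04 for Pfkfb3, -1.04 for Slc16a3, -0.99 for Vegfa and -0.72 for Slc2a1. It was -0.69 for Pfkl, -0.66 for Tpi1, -0.64 for Egln1, -0.53 for Pgam1 and -0.53 for Slc16a1. It was -0.49 for Pgk1, -0.43 for Eno1, -0.39 for Ldha and -0.29 for Pdk1. Without KO 8 h clone A, Tpi1 (-0.29), Ldha (-0.19) and Pdk1 (-0.20) lost their call. Eno2 (-0.81) was then gained as negative and Ldhb (0.30) as positive. Bnip3 differed in opposite directions at the 2 times.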

How the results depend on the processing

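Scaling by library size alone shifted the median log2 fold change of all genes by -0.33 for KO at 2 h, -0.38 for KO at 8 h, -0.26 for KO over WT at 8 h and -0.30 for the difference of responses at 8 h. Under it the members counted were 5 lower for WT 8 h over 2 h, 5 higher and 8 lower for KO 2 h over 0 h, 5 higher and 18 lower for KO 8 h over 0 h, 1 lower for KO over WT at 0 h, 3 higher at 2 h, and 0 higher for the difference at 2 h. Without a low count filter 1 member, Aldoa, was higher for KO over WT at 8 h. Without KO 2 h clone A and KO 8 h clones B and C, 13 members were lower for KO 8 h over 0 h and 21 for KO over WT at 8 h. The cause was not tested.

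Leaving out 1 library at a time gave 5 to 7 members lower for WT 8 h over 2 h, 8 to 15 higher and 5 to 9 lower for KO 8 h over 0 h, 5 to 7 higher and 1 to 2 lower for KO over WT at 0 h, 0 to 4 higher for KO over WT at 8 h and 0 to 1 higher for the difference at 8 h. The members lower numbered 11 to 16 both for KO over WT at 8 h and for the difference at 8 h. The count of 1 lower at 0 h, with Egln3 lost, came without KO 0 h clone A, KO 0 h clone B or WT 0 h clone B.

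Among single members the sign turned under library size alone for Hif1a in WT at 2 h (-0.025), for Eno1 (-0.097), Pdk1 (-0.057) and Hif1a (-0.026) in KO at 2 h, and in KO at 8 h for Slc2a1 (-0.32), Gpi1 (-0.34), Aldoa (-0.37), Pgk1 (-0.33), Pgam1 (-0.29) and Pkm (-0.10). Without the 3 libraries it turned in KO at 8 h against 0 h for Gpi1 (-0.30), Aldoa (-0.70), Pgk1 (-0.22) and Ldha (-0.21), against 2 h for Slc16a1 (-0.053) and Gapdh (-0.25), for KO over WT at 8 h for Slc2a3 (-0.45), Aldoa (-0.43), Pkm (-0.23) and Ldha (-0.42), and in the difference at 8 h for Ldhb (-0.35). Without KO 8 h clone A it turned for Tpi1 in KO over WT at 8 h (0.32).

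Over all genes, library size alone moved the number higher to 2384 against 4574 for WT at 2 h, to 2680 against 4331 for WT at 8 h, to 1732 against 4446 for KO at 2 h, to 1202 against 3990 for KO at 8 h, to 213 against 962 for KO over WT at 0 h, to 305 against 1530 at 2 h, to 356 against 2049 at 8 h, to 57 against 933 for the difference at 2 h and to 109 against 1113 at 8 h. It moved the number of all genes lower to 2532 against 4271 for WT 8 h over 2 h, to 6958 against 4180 for KO at 8 h, to 207 against 1362 for KO over WT at 0 h, to 3999 against 2421 at 8 h and to 532 against 933 for the difference at 2 h; for KO 8 h over 2 h the number of all genes higher was 2619 against 4153. With DESeq2, 613 of all genes were higher for KO over WT at 0 h. With the clone letter as a replicate block, 4 of 330 member values changed call: Pkm (-0.17) and Hif1a (-0.13) in WT 8 h over 2 h were lost, and Ldha (0.21) in KO at 8 h and Pgk1 (-0.21) in KO over WT at 8 h were gained; it changed no other member's call.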
